A study of Mus musculus with 24 samples.

Results

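Macroautophagy genes were followed through the response of mouse cells to loss of MOF, the histone H4 acetyltransferase encoded by Kat8, with and without Adriamycin. The set was a fixed list of 39 genes for the autophagy machinery and its cargo receptors, and its members were found by their symbol in the deposited tables. By symbol 38 of the 39 were present. Atg101, a subunit of the ULK1 complex, was missing under that name. It was found under 9430023L20Rik, an older symbol among its RefSeq synonyms, and is given apart from the 38.

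The fibroblasts were mouse embryonic fibroblasts at passage 2 (MEFs), either Mof knockout or wild type. The podocytes were MPC5 cells, a mouse line used here after differentiation at passage 20, either with a Mof knockdown or with a scramble control. Each kind of cell was given vehicle (DMSO) or Adriamycin (doxorubicin, an anthracycline that poisons topoisomerase II) for 24 h, at 0.1 µg/ml in MEFs and 0.25 µg/ml in podocytes, which made 8 groups of 3 samples, 24 in all. How the knockout and the knockdown were made, and whether the samples of a group came from separate cultures, is not stated in the labels, so a p-value here speaks only to the variation among these samples, part or all of which may be technical. The authors' deposited tables compare Mof-depleted with control samples in 4 settings that share no samples: MEFs with vehicle, MEFs with Adriamycin, podocytes with vehicle and podocytes with Adriamycin. They hold a mean normalized count over all samples of a table, a log2 fold change with its standard error (SE) and an adjusted p-value from DESeq2, and no value per sample, so depth per library is unknown and no spread between replicates beyond the SE can be given. Every fold change below is Mof-depleted over control, with ± SE. A gene is called higher or lower where the adjusted p lay below 0.05.

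The depleted gene was checked in each table. In the authors' deposited tables Kat8 was at -1.96 ± 0.20 in MEFs with vehicle, -1.71 ± 0.16 in MEFs with Adriamycin, -1.49 ± 0.15 in podocytes with vehicle and -1.24 ± 0.14 in podocytes with Adriamycin. The direction of the tables was read from this sign, so it does not test the labels. All 10 fibroblast markers were measured in MEFs with vehicle. Their mean normalized counts ran from 147 (Lum) to 221927 (Fn1), beside a median of 338 over all tested genes. Of the 10, 3 were higher in the knockout, Lum (2.42 ± 0.21) and Dcn (1.42 ± 0.17) among them. Col1a2 (-0.33 ± 0.11) was the 1 lower. Over all tested genes 17.8% were higher and 19.6% lower there. The slit diaphragm gene Nphs1 had a mean count of 0 there. The podocyte tables list only genes past the threshold, and Nphs1 is not among the 2 podocyte markers listed under vehicle (Synpo and Podxl, both higher).

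In autophagy a membrane grows around cytoplasmic cargo, closes as an autophagosome and fuses with the lysosome. The ULK1 kinase complex starts the process, a class III PI3-kinase complex marks the membrane with the lipid PI3P, and lipid transfer proteins extend it. Ubiquitin-like conjugation then attaches the ATG8 proteins (the LC3 and GABARAP families) to the membrane, where cargo receptors such as p62 bind them. In podocytes, which are long-lived and rarely divide, autophagy is known as a route of protein and organelle turnover.

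To show the regulatory sequence of the genes with the firmest response in MEFs, promoters were taken for the 6 members called in both MEF tables at an absolute log2 fold change of at least 0.5 in each: Ulk1, Map1lc3b, Gabarap, Gabarapl1, Sqstm1 and Stx17. The sequences are those of RefSeq on build GRCm38.p6 (250 bases before the start site), shortened to the bases outside the gene body of GENCODE M21. For Gabarap fewer than 50 bases were left and none are printed. Capitals mark GC boxes (GGGCGG on either strand), and the CCAAT box, searched too, was in none of the 5. The windows are chr5:110810098-110810331 (minus strand) for Ulk1, chr8:121590188-121590360 (plus) for Map1lc3b, chr6:129532942-129533159 (plus) for Gabarapl1, chr11:50210828-50211070 (minus) for Sqstm1 and chr4:48124669-48124914 (plus) for Stx17. The Sqstm1 window runs through an exon of Mgat4b, and the Gabarapl1 window lies within an exon of the noncoding gene 1700101I11Rik, each on the opposite strand.
Ulk1: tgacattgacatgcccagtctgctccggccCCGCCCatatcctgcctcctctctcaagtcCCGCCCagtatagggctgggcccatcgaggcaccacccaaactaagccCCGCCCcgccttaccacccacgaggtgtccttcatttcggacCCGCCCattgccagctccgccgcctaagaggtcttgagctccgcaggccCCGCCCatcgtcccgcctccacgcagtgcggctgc
Map1lc3b: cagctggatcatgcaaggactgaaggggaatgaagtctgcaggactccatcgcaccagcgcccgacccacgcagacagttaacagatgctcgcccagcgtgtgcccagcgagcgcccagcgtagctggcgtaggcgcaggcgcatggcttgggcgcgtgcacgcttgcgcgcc
Gabarapl1: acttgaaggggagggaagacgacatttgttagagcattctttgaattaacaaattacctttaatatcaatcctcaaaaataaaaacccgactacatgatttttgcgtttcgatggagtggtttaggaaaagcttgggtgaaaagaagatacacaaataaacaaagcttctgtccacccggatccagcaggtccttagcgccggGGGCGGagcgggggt
Sqstm1: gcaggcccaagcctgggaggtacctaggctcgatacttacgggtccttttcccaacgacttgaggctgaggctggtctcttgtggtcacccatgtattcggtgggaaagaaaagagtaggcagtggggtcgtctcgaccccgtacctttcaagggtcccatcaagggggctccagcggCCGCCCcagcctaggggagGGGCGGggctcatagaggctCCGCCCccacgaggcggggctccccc
Stx17: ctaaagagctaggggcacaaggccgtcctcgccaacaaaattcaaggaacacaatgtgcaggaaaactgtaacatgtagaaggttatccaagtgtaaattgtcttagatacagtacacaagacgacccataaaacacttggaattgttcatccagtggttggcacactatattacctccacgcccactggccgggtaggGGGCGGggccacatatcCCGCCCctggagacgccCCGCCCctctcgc

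The Ulk1 window held 5 GC boxes, those of Sqstm1 and Stx17 held 3 each, that of Gabarapl1 held 1, and the Map1lc3b window held none. Base composition of the shortened windows varied, from 43.6% G and C in the Gabarapl1 window to 66.2% in that of Ulk1. The median over all promoters was 52.4%, taken over their full 250 bases and so not over like windows. Over the full 250 bases, 32 of the 39 members had a RefSeq promoter, and 21 of these 32 (65.6%) held a GC box, beside 32.7% of all 32851 promoters. Map1lc3b is among these 21, by a match outside its printed window. A CCAAT box was in 8 of 32 (25.0%), beside 33.8% of all. The E-box CACGTG, which the lysosomal factors TFEB and TFE3 can bind, was in 3 of 32 (9.38%: Atg3, Atg5 and Atg7), beside 6.02% of all. The core TGACNNNGC of the antioxidant response element was in 3 of 32 (Atg13, Tax1bp1 and Ulk2), beside 10.2%. None of the 5 printed windows holds these last motifs. Both strands were searched. Members were counted per gene, with a match in any promoter of that gene, while the shares over all were taken per promoter. These are matches of letters only, and a missing match says no more than that the letters are not in the window.

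For the effect of MOF loss on autophagy genes in fibroblasts without the drug, knockout and wild-type MEFs given vehicle were compared. In the authors' deposited table all 5 ATG8 genes and all 5 cargo receptors were higher in the knockout. Of these 10 genes, 8 passed an adjusted p of 0.01 (not Map1lc3a and Nbr1), and 5 had a log2 fold change of at least 0.5 (Sqstm1, Gabarap, Map1lc3b, Gabarapl1 and Calcoco1). The receptor gene Sqstm1 rose most, 2.35-fold, and Gabarap, Map1lc3b and Gabarapl1 rose 1.94-fold, 1.82-fold and 1.67-fold. The genes that fell encode parts of the upstream machinery and the fusion step, led by the SNARE gene Stx17, the kinase gene Pik3c3 and the protease gene Atg4a, at 0.644-fold, 0.646-fold and 0.645-fold. In all, 14 of 38 members were higher and 8 lower (DESeq2), where 17.8% of the 15605 tested genes were higher and 19.6% lower.

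With only genes of a mean normalized count of at least 100, which 37 of the 38 members met, the counts of members were the same and 20.2% of all such genes were higher and 26.5% lower. The members' median log2 fold change was 0.11, beside 0.01 over all tested genes. Their SEs ran from 0.07 to 0.23. Only Sqstm1 passed 2-fold.

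**Figure D1:**
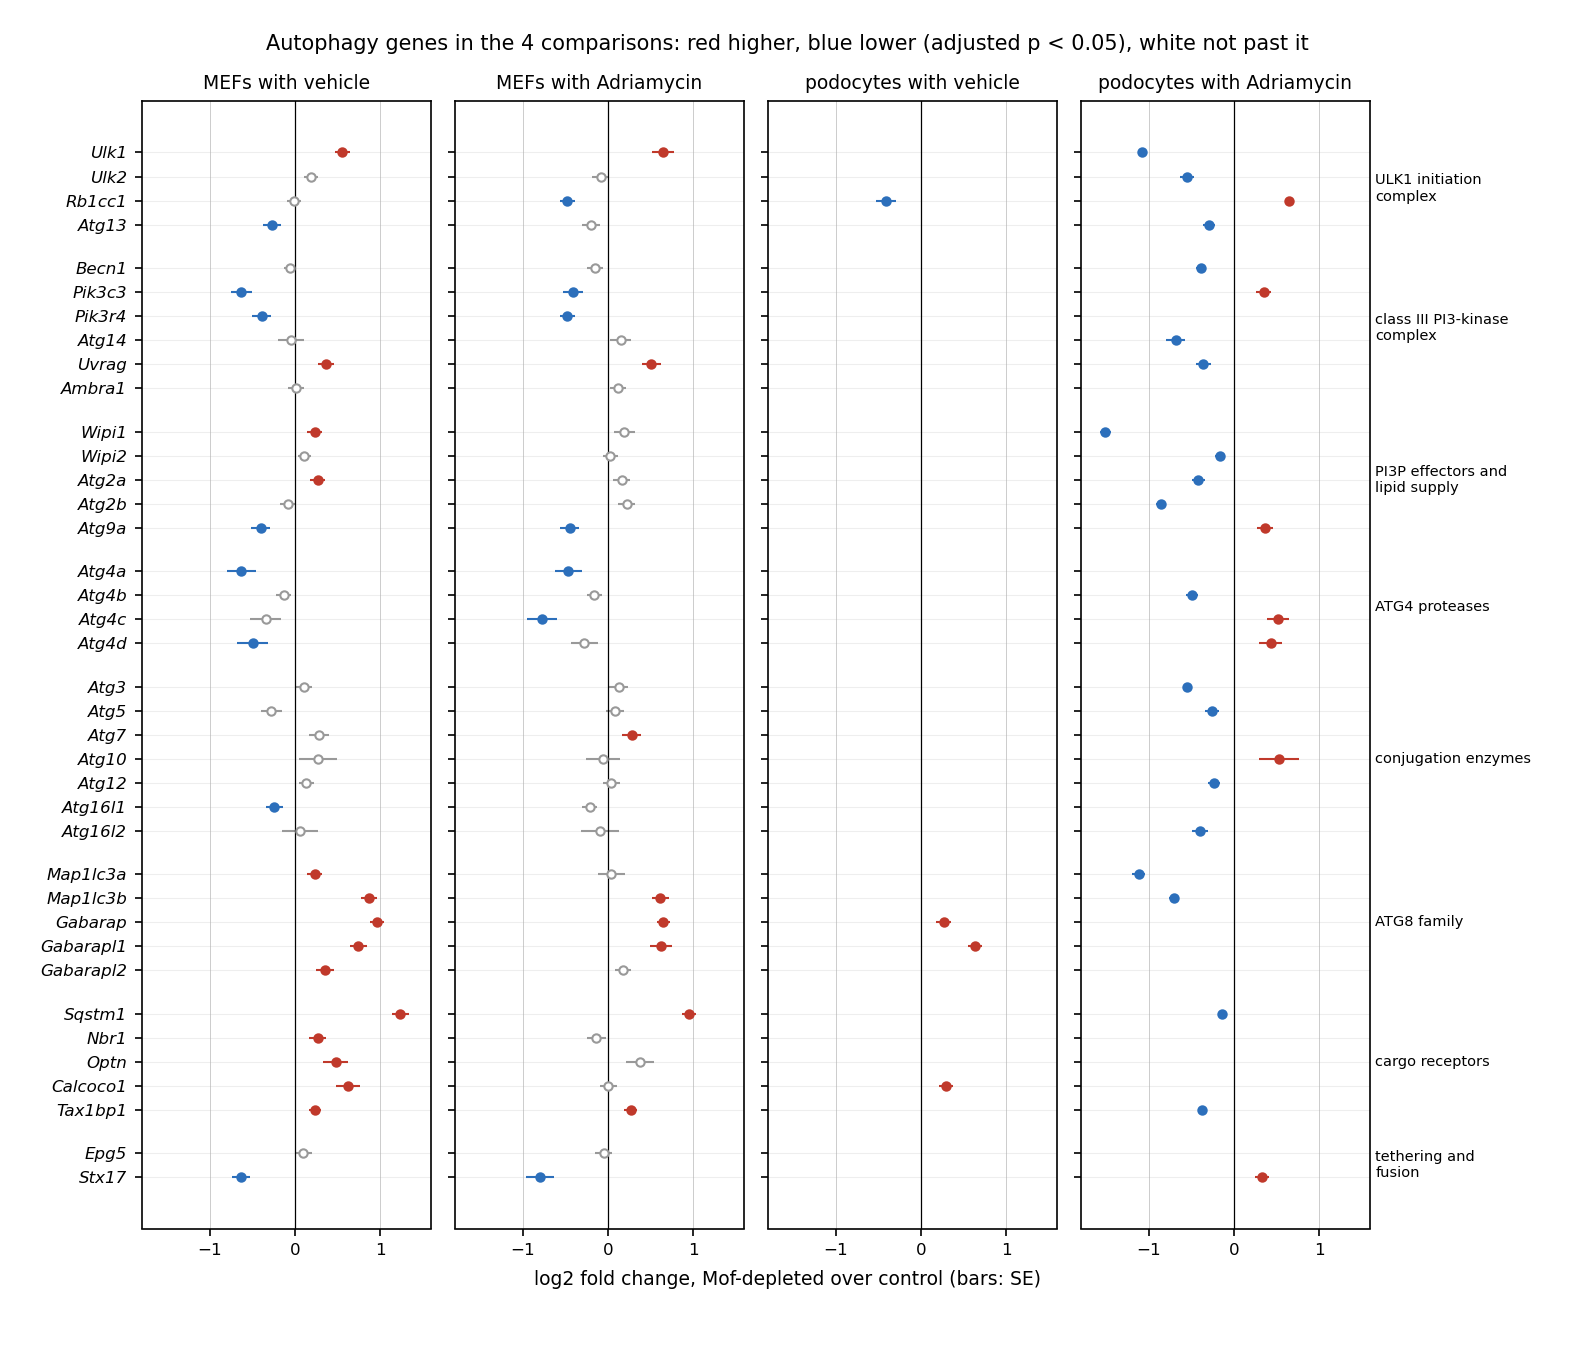
Log2 fold change (Mof-depleted over control, x axis, bars are the SE) of each of the 38 autophagy genes (rows, grouped by role) in the 4 comparisons (panels), red where higher, blue where lower and white where the adjusted p did not lie below 0.05. All 10 ATG8 and receptor genes are red in MEFs with vehicle, and blue points prevail in podocytes with Adriamycin, 19 of the 26 listed, where unlisted genes have no point.

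**Figure D2:**
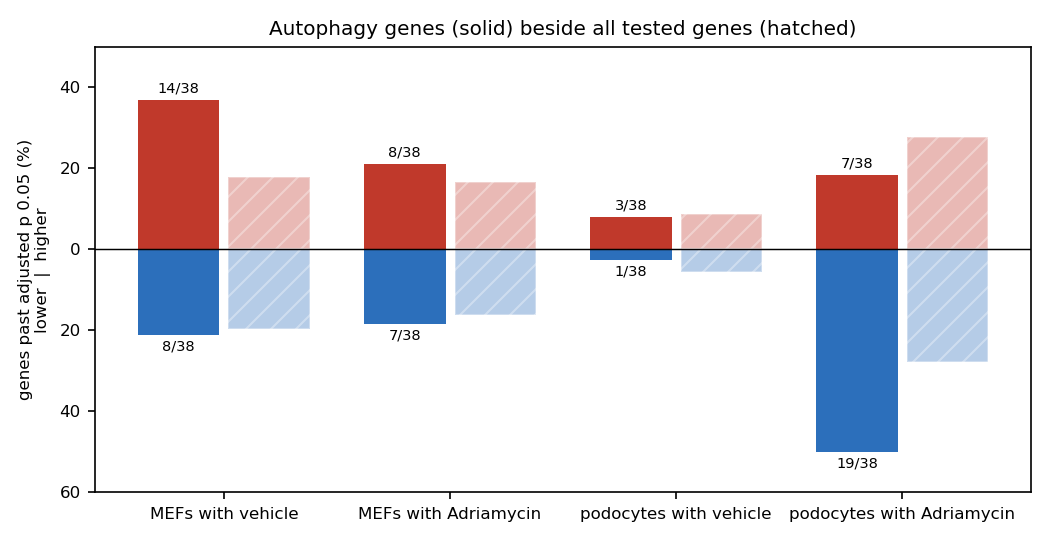
Share of the 38 autophagy genes (solid bars) and of all tested genes (hatched bars) called higher (red, upward) or lower (blue, downward) in each comparison, in percent. In MEFs with vehicle 36.8% of members were higher beside 17.8% of all genes, and in podocytes with Adriamycin 19 of 38 were lower beside 27.9% of all genes.

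The cargo receptors link ubiquitinated or otherwise marked cargo to ATG8 proteins. Sqstm1 (p62; chr11:50199366-50210827, GRCm38) was at 1.23 ± 0.10 (adjusted p 1.97e-31) in the authors' deposited table. Its mean normalized count of 8789 was the highest of the set. Calcoco1, an ER-phagy receptor, followed at 0.62 ± 0.14 (adjusted p 7.08e-05). Optn, a receptor in mitophagy and in defence against bacteria, was at 0.47 ± 0.15. Nbr1, a receptor related to p62, and Tax1bp1, which acts in the clearance of protein aggregates, rose by smaller amounts, 0.26 ± 0.10 and 0.23 ± 0.07. Every receptor was thus higher, and the receptors spanned a range from 1.18-fold to 2.35-fold.

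The ATG8 proteins are the lipid-anchored tags of the autophagosome membrane. In the authors' deposited table Gabarap (chr11:69991143-69994951) was at 0.96 ± 0.08 (adjusted p 3.62e-31), Map1lc3b, which encodes LC3B, at 0.87 ± 0.10 (6.31e-18) and Gabarapl1 at 0.74 ± 0.10 (2.40e-12). Gabarapl2, also known as GATE-16, was at 0.36 ± 0.11, and Map1lc3a, encoding LC3A, at 0.23 ± 0.09. The GABARAP and LC3 branches both rose, and within each branch the members differed in size of change.

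The conjugation enzymes and the ATG4 proteases, which attach ATG8 proteins to lipid and process or release them, did not follow that direction. Of the 7 conjugation genes 1 was called in the authors' deposited table, Atg16l1, a subunit of the complex that sets the site of lipidation, which fell by 0.24 on the log2 scale (SE 0.10, adjusted p 0.0335). Atg5 (-0.28 ± 0.12, adjusted p 0.0505) and Atg7 (0.28 ± 0.12, adjusted p 0.0541) lay just outside the threshold, on opposite sides of 0. Among the proteases Atg4a (-0.63 ± 0.17) and Atg4d (-0.50 ± 0.18, adjusted p 0.0182) were lower. Atg4c was at -0.35 ± 0.18 (adjusted p 0.121) and Atg4b at -0.13 ± 0.09 (adjusted p 0.242).

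The initiation genes were split. Ulk1, the kinase itself, rose to 0.55 ± 0.09 (adjusted p 2.28e-09) in the authors' deposited table, while Atg13, its regulatory partner, fell by 0.27 (SE 0.11, adjusted p 0.0385). The scaffold gene Rb1cc1 (FIP200) was at -0.01 ± 0.08 and the second kinase gene Ulk2 at 0.19 ± 0.08 (adjusted p 0.0638).

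Of the PI3-kinase complex, the catalytic subunit gene Pik3c3 (VPS34) fell by 0.63 (SE 0.13, adjusted p 5.83e-06) in the authors' deposited table. The gene of its regulatory subunit, Pik3r4 (VPS15), fell by 0.39 (SE 0.11). Uvrag, a subunit of the endosomal form of the complex, rose to 0.36 ± 0.09. Becn1 (-0.06 ± 0.07), Atg14 (-0.05 ± 0.15) and Ambra1 (0.01 ± 0.09) did not pass. Of the 6 genes grouped here with the complex, those for the enzyme and its regulatory subunit fell, 1 rose and 3 were not called.

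Downstream of PI3P, Wipi1, a PI3P-binding protein (0.23 ± 0.08), and Atg2a, a lipid transfer protein (0.26 ± 0.09), rose in the authors' deposited table, and Atg9a, the transmembrane lipid scramblase, fell by 0.41 (SE 0.11). Their relatives Wipi2 (0.11 ± 0.08) and Atg2b (-0.09 ± 0.09) did not pass. At the fusion step Stx17, the SNARE of the closed autophagosome, fell by 0.64 (SE 0.10, adjusted p 1.34e-08), the lowest value of the set, and the tether gene Epg5 was at 0.10 ± 0.10.

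Markers of other cells moved in the same table. Of 13 macrophage and leukocyte markers 8 were higher, among them Emr1 (1.21 ± 0.25), Lyz2 (1.29 ± 0.36) and C1qa (1.01 ± 0.27), and 0 lower. Ptprc (0.36 ± 0.30) and Csf1r (-0.12 ± 0.25) were among those not called. The mean counts of the 13 ran from 9.46 to 1924, with none at 0, and summed to 4126. Of 5 endothelial markers with an adjusted p, 0 passed by DESeq2 and 0 had an unadjusted p below 0.05, and 2 of 3 epithelial markers were higher. The authors' deposited table gives no level per group. The part of such cells in the autophagy values was not tested, and a change in the share of cells of a type cannot be told apart from a change in RNA per cell.

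Knockout and wild-type MEFs were then compared under Adriamycin. In the authors' deposited table Sqstm1, Gabarap, Ulk1, Gabarapl1 and Map1lc3b were again the highest, from 1.93-fold for Sqstm1 to 1.53-fold for Map1lc3b, and Stx17 and Atg4c were the lowest, at 0.575-fold and 0.584-fold. In all, 8 of 38 members were higher and 7 lower (DESeq2), where 16.6% of the 14139 tested genes were higher and 16.1% lower. Where the mean count reached 100 or more, these shares were 19.1% and 18.4%. The members' shares, 21.1% and 18.4%, were near those of all genes, and their median of 0.03 lay beside -0.02 over all tested genes.

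Among the receptors 2 of 5 rose with the drug, Sqstm1 at 0.95 ± 0.08 (adjusted p 2.34e-28) and Tax1bp1 at 0.27 ± 0.08, in the authors' deposited table. Optn was at 0.37 ± 0.17 (adjusted p 0.0709), Nbr1 at -0.14 ± 0.11 and Calcoco1 at 0.00 ± 0.10 (adjusted p 0.992). Of the ATG8 genes 3 of 5 rose: Gabarap at 0.65 ± 0.08 (adjusted p 1.16e-14), Gabarapl1 at 0.62 ± 0.13 and Map1lc3b at 0.61 ± 0.10. Gabarapl2 (0.18 ± 0.09, adjusted p 0.136) and Map1lc3a (0.04 ± 0.16) did not pass. The 3 ATG8 genes that rose were close to each other in size, within their SEs.

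Upstream, Ulk1 was at 0.64 ± 0.13 (adjusted p 7.38e-06) and Uvrag at 0.51 ± 0.11 in the authors' deposited table, both higher as under vehicle. Rb1cc1, the ULK1 scaffold, fell by 0.48 (SE 0.09, adjusted p 2.03e-06), and Pik3r4 and Pik3c3 fell by 0.48 (SE 0.09) and 0.41 (SE 0.11). Atg9a fell by 0.45 (SE 0.11). The proteases Atg4c (-0.78 ± 0.17, adjusted p 9.15e-05) and Atg4a (-0.46 ± 0.16, adjusted p 0.0155) were lower, and Stx17 was at -0.80 ± 0.17 (adjusted p 3.51e-05).

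Of the conjugation genes the authors' deposited table calls only Atg7, the E1-like enzyme, at 0.28 ± 0.11 (adjusted p 0.0428). Atg16l1 lay just outside at -0.22 ± 0.09 (adjusted p 0.0513). Of the 13 macrophage and leukocyte markers 12 had an adjusted p, and 0 passed by DESeq2, with 0 at an unadjusted p below 0.05. Lyz2 was at 0.73 ± 0.39 there, and the marker counts summed to 6258 over both groups. The median of the markers was 0.29, and their part in the autophagy values of this table was not tested.

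Whether the drug condition altered the response to knockout was tested on the difference of the log2 fold changes (Adriamycin less vehicle, z test, Benjamini-Hochberg over 13973 genes). Of the 38 members 2 passed, both lower with Adriamycin, where 3.61% of all genes were lower and 3.49% higher. Calcoco1 had risen under vehicle and not with the drug, a difference of -0.62 ± 0.17 (adjusted p 0.0104). Rb1cc1 did not pass under vehicle (-0.01 ± 0.08) and fell with the drug, a difference of -0.47 ± 0.12 (adjusted p 0.00500). No member was higher by this test, with 2 higher and 6 lower at an unadjusted p below 0.05.

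The next smallest adjusted p were those of Gabarap (-0.31 ± 0.11, adjusted p 0.0624) and Nbr1 (-0.40 ± 0.15, adjusted p 0.0799). Sqstm1 differed by -0.28 ± 0.13 (adjusted p 0.182), with a 95% interval from -0.54 to -0.03. For Ulk1 the difference was 0.09 ± 0.15, with an interval from -0.21 to 0.39, and for Stx17 -0.16 ± 0.20, from -0.55 to 0.23. A p that misses the threshold does not show an equal response, and these intervals give the sizes of difference that the data allow. Over the set the difference was below 0 for 25 members and above 0 for 13, with a median of -0.09 beside -0.02 over all genes.

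**Figure D3:**
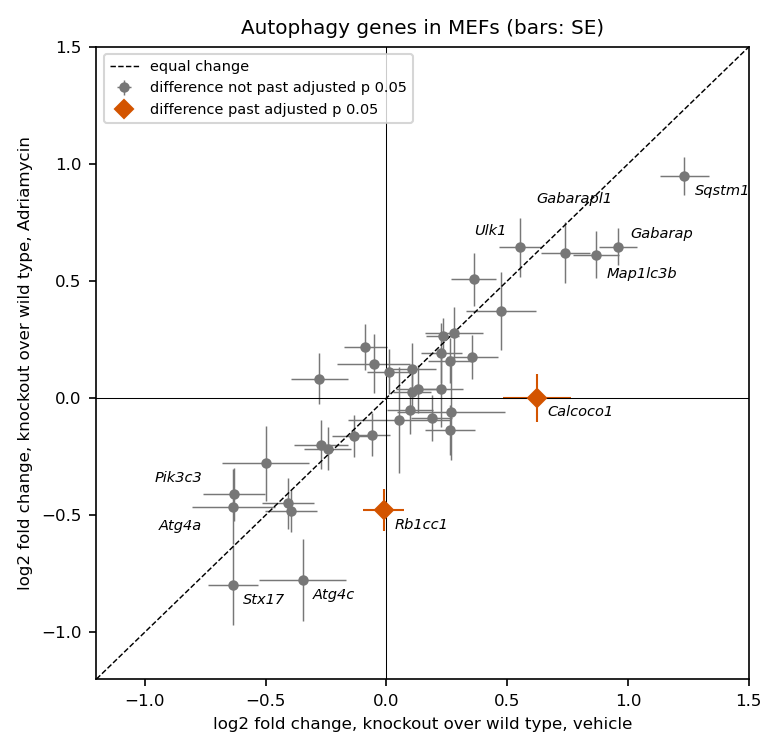
Log2 fold change of the 38 autophagy genes in knockout over wild-type MEFs given vehicle (x axis) and Adriamycin (y axis), with SE bars; the dashed line marks equal change and orange diamonds the genes whose difference passed an adjusted p of 0.05. Sqstm1 lies at the upper right (1.23 and 0.95), Stx17 at the lower left (-0.64 and -0.80), and Calcoco1 and Rb1cc1 lie below the line.

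Calls in both MEF tables were made for 12 members, 12 of the 22 under vehicle and of the 15 with Adriamycin, each in the same direction: Sqstm1, Tax1bp1, Gabarap, Gabarapl1, Map1lc3b, Ulk1 and Uvrag higher, and Atg4a, Atg9a, Pik3c3, Pik3r4 and Stx17 lower. Same-direction calls were the rule in these tables, since of all 2923 genes called in both 2.70% had opposite signs.

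In podocytes given vehicle the knockdown was compared with the scrambled control. The authors' deposited table lists 4 of the 38 members. Gabarapl1 rose to 0.63 ± 0.08 (adjusted p 6.72e-13), Calcoco1 to 0.29 ± 0.08 (adjusted p 0.00702) and Gabarap to 0.27 ± 0.09 (adjusted p 0.0241), and Rb1cc1 fell by 0.41 (SE 0.12, adjusted p 0.00855). The 3 higher and 1 lower of 38 stand beside 8.70% of 13876 tested genes higher and 5.64% lower, so the members were not called more often than other genes. The other 34 members are not in the table, which holds only genes past the threshold, and a gene tested without passing cannot be told from one that was not tested.

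In podocytes given Adriamycin most listed members were lower in the knockdown. The authors' deposited table lists 26 of the 38, 19 lower and 7 higher (DESeq2), where 27.9% of the 17184 tested genes were lower and 27.8% higher. Wipi1, Map1lc3a and Ulk1 fell most, the control exceeding the knockdown 2.85-fold, 2.17-fold and 2.11-fold. Rb1cc1 rose most, 1.57-fold. The median of the 26 was -0.37, beside -0.12 over the 9578 genes the table lists.

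In the initiation complex 3 genes fell and 1 rose. Ulk1 fell by 1.07 (SE 0.06, adjusted p 3.62e-79), Ulk2 by 0.55 (SE 0.08) and Atg13 by 0.29 (SE 0.07) in the authors' deposited table, while Rb1cc1 rose to 0.65 ± 0.05 (adjusted p 7.12e-38). Atg101, matched by its older symbol, fell by 0.84 (SE 0.08, adjusted p 7.56e-26). It had been at 0.09 ± 0.14 in MEFs with vehicle and 0.19 ± 0.14 in MEFs with Adriamycin, neither past the threshold.

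Among the PI3P and lipid supply genes Wipi1 fell by 1.51 (SE 0.06, adjusted p 5.11e-121), the lowest value of the set in any table, and Atg2b by 0.85 (SE 0.06, adjusted p 6.76e-47), in the authors' deposited table. Atg2a fell by 0.42 (SE 0.08) and Wipi2 by 0.16 (SE 0.06), while Atg9a rose to 0.36 ± 0.09. In the PI3-kinase complex Atg14, the subunit that directs it to the site of autophagosome formation, fell by 0.68 (SE 0.11), Becn1 by 0.39 (SE 0.05) and Uvrag by 0.36 (SE 0.09), and Pik3c3 rose to 0.35 ± 0.09. Of the PI3P and lipid supply genes 4 of 5 thus fell. Of the 6 genes grouped with the PI3-kinase complex 3 fell, 1 rose and 2 (Pik3r4 and Ambra1) are not listed. Atg9a and Pik3c3, higher here, had been lower in both MEF tables.

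Of the conjugation genes 4 fell in the authors' deposited table: Atg3, the E2-like enzyme of the ATG8 reaction (-0.55 ± 0.06, adjusted p 7.18e-21), Atg16l2 (-0.40 ± 0.09), Atg5 (-0.25 ± 0.08) and Atg12 (-0.24 ± 0.07). Atg10, the E2-like enzyme of the ATG12 reaction, was higher at 0.53 ± 0.23 (adjusted p 0.0408), with the lowest mean count of the listed members, 69.2. The ATG4 proteases divided, with Atg4b lower (-0.49 ± 0.07) and Atg4c (0.52 ± 0.13) and Atg4d (0.43 ± 0.14) higher.

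Of the ATG8 genes Map1lc3a fell by 1.12 (SE 0.08, adjusted p 2.06e-46) and Map1lc3b by 0.70 (SE 0.06, adjusted p 4.11e-29) in the authors' deposited table. The 3 GABARAP genes are not listed. Of the receptors Tax1bp1 fell by 0.37 (SE 0.04, adjusted p 2.10e-19) and Sqstm1 by 0.14 (SE 0.04, adjusted p 0.00243). The change in Sqstm1 was small, 0.910-fold, on a mean count of 8837. Stx17 rose to 0.33 ± 0.08.

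The directions in the 2 cell types given Adriamycin were then set side by side. There were 10 members called in both cell types, 10 of 15 in MEFs and 10 of 26 in podocytes, and all 10 had opposite signs. Sqstm1, Tax1bp1, Map1lc3b, Ulk1 and Uvrag were higher in MEFs and lower in podocytes, and Rb1cc1, Atg4c, Atg9a, Pik3c3 and Stx17 were lower in MEFs and higher in podocytes. Opposite signs were also common over all genes, 74.5% of the 3191 called in both tables, which is the background for the members' count. The cell types differ as well in drug dose and in the means of depletion, which cannot be told apart from cell type here.

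**Figure D4:**
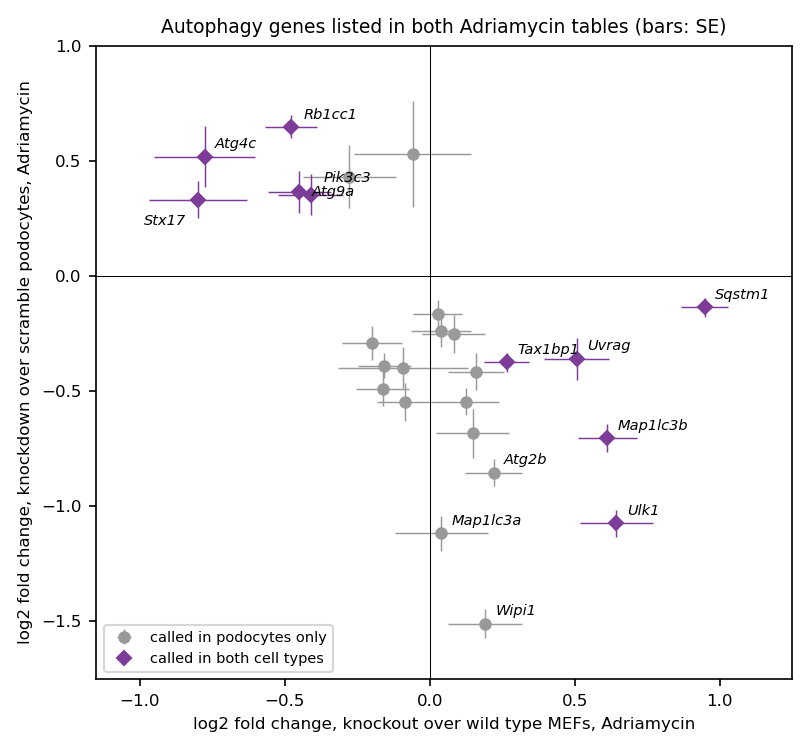
Log2 fold change of the 26 autophagy genes listed in podocytes with Adriamycin (y axis, knockdown over scramble) against MEFs with Adriamycin (x axis, knockout over wild type), with SE bars; purple diamonds are called in both tables. All 10 diamonds lie in the upper left or lower right quadrant.

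MEFs with vehicle and podocytes with Adriamycin shared 13 called members, of which 12 had opposite signs and 1, Atg13, was lower in both, where 68.9% of all 4003 shared genes were opposite. With podocytes given vehicle the members called in both tables had the same sign as in MEFs: Gabarap, Gabarapl1 and Calcoco1 higher under vehicle, and Gabarap and Gabarapl1 higher and Rb1cc1 lower with Adriamycin in MEFs, 3 each. Over all genes 38.7% of 890 and 49.5% of 667 were opposite in these pairs. Between the podocyte tables only Rb1cc1 was called in both, lower with vehicle (-0.41) and higher with Adriamycin (0.65) in the authors' deposited tables. Of all 1518 genes called in both, 34.3% had opposite signs. Among the 38 members, 11 were called in 3 tables, 9 in 2, 16 in 1 and 2 (Ambra1 and Epg5) in none.

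Levels were compared between genes per length, as the mean normalized count per kb of exon (GENCODE M21). In MEFs with vehicle Gabarap (2791 per kb) and Sqstm1 (2619 per kb) stood highest, followed by Gabarapl1 (986 per kb) and Map1lc3a (837 per kb). With Adriamycin the order was Sqstm1 (4454 per kb), Gabarap (3795 per kb), Map1lc3a (1927 per kb) and Gabarapl1 (1665 per kb). Atg16l2 and Atg4d were the lowest in both, at 20.2 and 25.2 per kb under vehicle. Of the 10 ATG8 and receptor genes, 7 were among the 8 highest members by level under vehicle, while Calcoco1 (114 per kb) and Optn (64.6 per kb) stood in the lower part of the order. The tables were normalized separately and hold no level per sample, so neighbours in this order were not tested against each other.

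**Figure D5:**
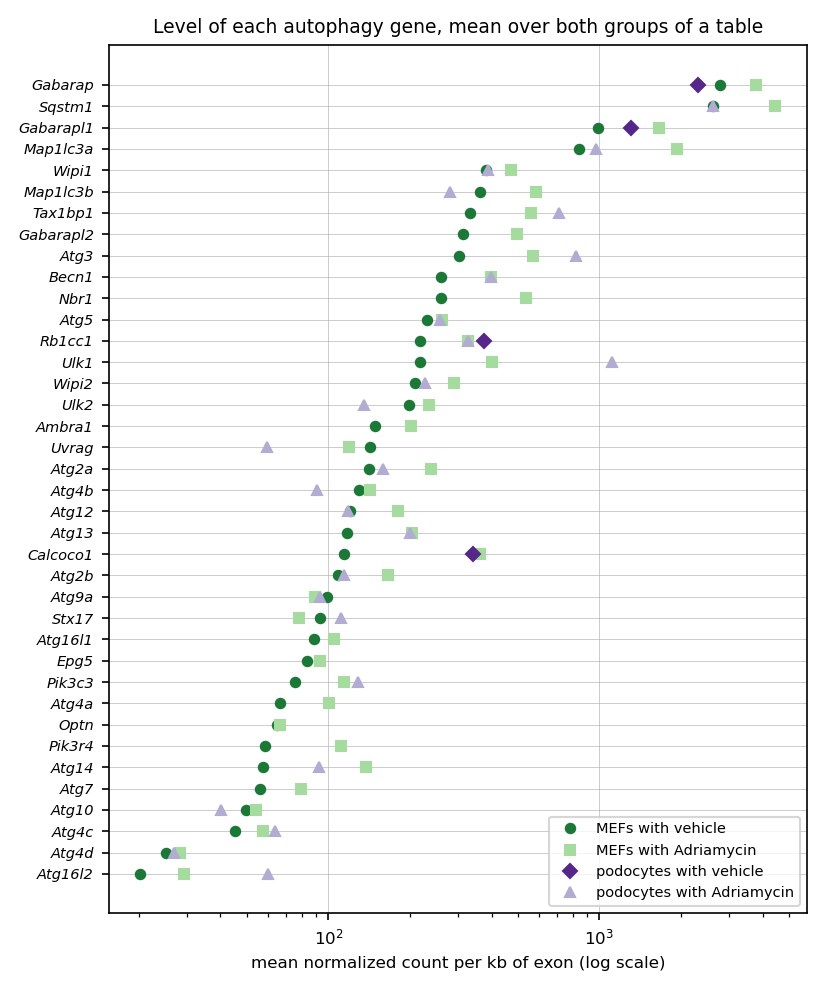
Mean normalized count per kb of exon (x axis, log scale) of each autophagy gene (rows, ordered by MEFs with vehicle), as the mean over both groups of each of the 4 tables (symbols). Gabarap and Sqstm1 hold the highest places in MEFs with vehicle, at 2791 and 2619 per kb, and Atg16l2 lies lowest in MEFs with vehicle at 20.2 per kb.

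Some values rest on exons shared with another gene, and the sources used here do not say whether reads were counted by strand. At least 10% of exon bases were shared for Becn1, Uvrag, Atg9a, Atg4d, Gabarapl1 and Sqstm1. For Atg9a 31.8% were shared with Gm29253 on the same strand, so counting by strand would not separate the 2 genes. The mean count of Gm29253 was 0.163 in MEFs with vehicle and 0 in MEFs with Adriamycin. For Sqstm1 17.3% were shared with Mrnip on the opposite strand, which in the authors' deposited table had a mean count of 37.7 under vehicle and was at -0.85 ± 0.38 (adjusted p 0.0666), the other direction from Sqstm1. For Gabarapl1 28.3% were shared with 1700101I11Rik, whose mean count was 3.88. In podocytes with Adriamycin Atg4d (0.43 ± 0.14) shared 19.3% of its bases with Kri1, which was at 0.42 ± 0.09 and nearly equal, so without the strand setting the reads behind Atg4d there cannot be assigned with certainty.

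Wider lists of autophagy genes outside the 39 were described in the same way. Of 29 further core genes and regulators 11 were higher and 4 lower in MEFs with vehicle, and 9 and 3 with Adriamycin, in the authors' deposited tables. Over all tested genes 17.8% were higher and 19.6% lower under vehicle, and 16.6% and 16.1% with Adriamycin. Trp53inp1, a p53 target that binds LC3, was at 1.96 ± 0.15 and the ER protein gene Ei24 at 0.64 ± 0.07 under vehicle, with Foxo4 (-0.52 ± 0.13) and the PI3P-binding Wdr45b (-0.35 ± 0.10) lower. With Adriamycin the ATPase gene Vcp (0.48 ± 0.08) and the transcription factor gene Foxo3 (0.42 ± 0.09) were higher, and Prkaa2, an AMPK subunit (-0.46 ± 0.13), and Rubcn, a PI3-kinase inhibitor (-0.37 ± 0.10), were lower. Of these genes, Ei24 (0.24 ± 0.08) and Foxo4 (-0.44 ± 0.14) were called in the same direction with Adriamycin. Under vehicle Vcp (0.35 ± 0.07) and Foxo3 (0.90 ± 0.13) were also higher, and Rubcn (-0.34 ± 0.10) was also lower. The list's medians were 0.14 and 0.10 in these tables.

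Podocytes listed 6 of these 29 under vehicle, 4 higher and 2 lower, and 19 with Adriamycin, 7 higher and 12 lower. Over all genes tested in podocytes 8.70% were higher and 5.64% lower under vehicle, and 27.8% and 27.9% with Adriamycin. Sesn1 (0.78 ± 0.13) and Nfe2l2, the antioxidant regulator NRF2 (0.42 ± 0.11), were higher under vehicle, and Dapk1 (-0.48 ± 0.11) and Ei24 (-0.30 ± 0.10) lower, in the authors' deposited table. Sesn1 was lower with Adriamycin (-0.74 ± 0.10), where Nfe2l2 (0.14 ± 0.05) and Ei24 (0.20 ± 0.04) were higher. With Adriamycin the AMPK subunit gene Prkaa1 (1.10 ± 0.09) and Vmp1, an ER scramblase of autophagosome formation (0.70 ± 0.06), rose. Trp53inp2 (-1.30 ± 0.06) and Foxo3 (-0.63 ± 0.04) were lower, Foxo3 against its direction in MEFs with the drug.

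Of 22 tested receptors for mitochondria, ER and other cargo 9 were higher and 3 lower in MEFs with vehicle. The shares over all tested genes there were 17.8% and 19.6%. With Adriamycin 4 were higher and 3 lower, near the 16.6% and 16.1% of all tested genes. The ER-phagy receptors Tex264 (0.52 ± 0.08 and 0.38 ± 0.08) and Retreg2 (0.54 ± 0.10 and 0.79 ± 0.09) rose in both of the authors' deposited MEF tables. Under vehicle Phb2, a mitochondrial inner membrane receptor (-0.31 ± 0.07), and Bcl2l13 (-0.29 ± 0.09) were lower, and with Adriamycin Wdfy3 (-0.43 ± 0.12) and Atl3 (-0.37 ± 0.10). Wdfy3 was also lower under vehicle (-0.18 ± 0.08), where Atl3 was higher (0.35 ± 0.09).

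Podocytes listed 5 of these receptors under vehicle, 4 higher and 1 lower, and 15 with Adriamycin, 9 higher and 6 lower. Atl3 was higher in both of the authors' deposited podocyte tables (0.39 ± 0.11 and 1.12 ± 0.06), and Phb2 lower in both (-0.48 ± 0.11 and -0.47 ± 0.06). Sec62 (0.37 ± 0.09) and Rtn3 (0.35 ± 0.11) were higher under vehicle. Both were also higher with Adriamycin (0.32 ± 0.04 and 0.92 ± 0.05). Pink1, the kinase that starts mitophagy, was lower with Adriamycin (-1.35 ± 0.08). These counts stand beside 27.8% of all tested genes higher and 27.9% lower in podocytes with Adriamycin, and 8.70% and 5.64% under vehicle.

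The last list held 17 genes of fusion and the lysosome. In MEFs with vehicle 9 were higher and 1 lower, and with Adriamycin 8 and 1, in the authors' deposited tables. The shares over all tested genes were 17.8% higher and 19.6% lower under vehicle, and 16.6% and 16.1% with Adriamycin. In podocytes with Adriamycin all 17 were lower, beside 27.9% of all tested genes. In MEFs with vehicle the protease gene Ctsd (1.41 ± 0.10) and the lysosomal membrane gene Lamp2 (0.97 ± 0.08) rose. Both also rose with Adriamycin (0.52 ± 0.07 and 0.47 ± 0.08). Ctsl (1.03 ± 0.08) and Ctsb (0.83 ± 0.10) rose with Adriamycin and also under vehicle (1.07 ± 0.10 and 1.12 ± 0.11). The tethering subunits Vps16 (-0.24 ± 0.09, vehicle) and Vps39 (-0.32 ± 0.09, Adriamycin) were the lower ones.

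Ctsd (-0.93 ± 0.04) and the GTPase gene Rab7 (-0.84 ± 0.04) had the smallest adjusted p of the list among podocytes with Adriamycin, per the authors' deposited table. The median of the 17 was -0.54, beside -0.12 over the genes listed. Under vehicle 4 of the 17 are listed in podocytes, Lamp2 higher (0.27 ± 0.08) and 3 lower, Vps41 (-0.37 ± 0.11) and Rab7 (-0.24 ± 0.07) among them. Over all genes tested there 8.70% were higher and 5.64% lower. The podocyte markers Cd2ap (0.98 ± 0.05) and Podxl (1.06 ± 0.09) were higher with Adriamycin in the authors' deposited table. Of 4 macrophage and leukocyte markers listed 1 was higher, Csf1r (2.65 ± 0.18), and 3 lower. The part of these changes in the autophagy values was not tested.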

How the data were processed

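RNA was sequenced from 24 mouse samples in 8 groups of 3, from poly(A) libraries. The submitters' processing notes name TopHat2 2.0.13, featureCounts 1.4.5-p1, DESeq2 1.4.1 and build GRCm38, without the role of each; strand setting, annotation and filters are not stated there. The deposited signal is a mean count over the samples of a table after the authors' normalization. The deposited log2 fold change and its SE carry the column names of DESeq2 per the file headers. That version shrinks fold changes toward 0 by default, and whether the authors kept this is not stated. In MEFs with vehicle, genes with hardly a read had small SEs, as shrunken values have. Calcoco2 (mean count 0.38) was at 0.34 ± 0.44 and Gm29253 (mean count 0.16) at 0.16 ± 0.32. The MEF fold changes are therefore best read as shrunken. The deposited score is the Wald statistic, and the p-value and adjusted p-value are the authors' own. No value per sample is given, so no test was refitted.

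Podocyte tables hold only genes with an adjusted p below 0.05; how many genes were tested was computed from each p, its rank and its adjusted p. From the deposited values, members and backgrounds were counted and medians taken (Python 3.11.15, scipy 1.17.1). With the same tools the MEF response with Adriamycin was compared with that under vehicle by a z test. How the z test behaves on fold changes shrunken separately in each table was not tested. Values are given for every member called in at least 1 table and, of each wider list, for up to 2 genes in each direction with the smallest adjusted p. Where such a gene was also called in the other drug condition of the same cells, that value is in part given too. The members and lists were chosen with earlier results of these data known. Exon lengths and overlaps come from GENCODE M21.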

Additional observations from a re-analysis of the deposited data

Results flagged for a closer look

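The response to knockout differed between the drug conditions in MEFs for 2 members. Rb1cc1, the scaffold of the ULK1 complex, in the authors' deposited tables was at -0.01 ± 0.08 under vehicle and at -0.48 ± 0.09 under Adriamycin, a difference of -0.47 ± 0.12 with a 95% interval from -0.71 to -0.23 (adjusted p 0.00500). Calcoco1, an ER-phagy receptor, was at 0.62 ± 0.14 and 0.00 ± 0.10, a difference of -0.62 ± 0.17 with an interval from -0.96 to -0.28 (adjusted p 0.0104). Over all 13973 genes 991 differed by this test.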

How the results depend on the processing

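With an absolute log2 fold change of at least 0.5 required, called members fell to 9 in MEFs with vehicle (6 higher, 3 lower), 8 in MEFs with Adriamycin (2 lower), 1 in podocytes with vehicle (1 higher, 0 lower) and 11 in podocytes with Adriamycin (3 higher, 8 lower). With a threshold of 0.01, lower members in MEFs with vehicle fell to 5, and the difference between drug conditions kept 1 member, 1 lower, losing Calcoco1. The minimum mean count of 100, centring on the median of all genes and adjustment without a filter on low counts left each count of members within 1.5 times its value, and no call changed direction under any of these settings. Without that filter Atg13 (vehicle) and Atg7 (Adriamycin) no longer passed in MEFs. No paired analysis was possible because the deposited tables hold no value per sample, and leaving out replicates was not run for the same reason. Depth per library is unknown, and members absent from the podocyte tables have no value there.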
